A study of Homo sapiens with 2 samples.

Results

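The 5 human genes that encode proteins with a YTH domain, YTHDF1, YTHDF2, YTHDF3, YTHDC1 and YTHDC2, were examined for N6-methyladenosine (m6A) on their own transcripts. A peak was counted for a gene when its summit lay in the RefSeq span of that gene on hg38, whatever gene the deposited table named, and 15 of the 39801 peaks met this rule. The peaks came from HCCLM3, an established human hepatocellular carcinoma cell line with a labelled genotype of WT and no treatment in the labels. One group was the m6A-RIP library, in which fragments of total RNA were captured with an m6A antibody, and the other was the input library of the same line, made without capture. Each group held 1 library, so every value describes these libraries, no test between conditions or genes was possible, and intervals cover counting error only. The table gives no level for a gene without a peak, so the liver identity of the cells was not checked here.

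The YTH domain folds into a pocket that holds the methyl group of m6A, and proteins that carry it are called readers of the mark. YTHDF1, YTHDF2 and YTHDF3 are closely related cytoplasmic proteins: YTHDF1 is known for promoting translation, YTHDF2 for recruiting the CCR4-NOT deadenylase to shorten the life of its targets, and YTHDF3 for acting with both. YTHDC1 is the nuclear reader, with roles in splicing and export, and YTHDC2 is an RNA helicase best known from meiotic germ cells. The series concerns YTHDF2 together with CRTC2, which coactivates transcription by CREB.

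All 5 genes held at least 1 peak. Among 20037 protein-coding genes the share with a summit in the span was 49.3%, and 39% held one with a q-value under 0.05, as all 5 readers did. YTHDF1 and YTHDF2 held 3 peaks each, YTHDF3 and YTHDC2 held 4 each, and YTHDC1 held 1. Among the 7658 protein-coding genes with a span of 20 to 100 kb, which is the range of the 5 readers, 60.3% held a peak. In that range 47.7% held a peak with a q-value under 0.05, and 24.9% held 3 or more peaks. A q-value under 0.05 was reached by 11 of the 15 peaks (73.3%), against a share of 48.8% over the whole list. The 4 peaks above that value were both introns of YTHDF3 that held a peak, 1 intron of YTHDC2 and the promoter-labelled peak of YTHDC2. Exons held 4 of the 15 peaks, 3' UTRs 4, introns 5 and promoter labels 2, where promoter labels extend up to 3 kb either side of a start and both such summits lay inside the gene. The shares were 26.7% for exons, 26.7% for 3' UTRs, 33.3% for introns and 13.3% for promoter labels. In the whole list they were 15.1%, 14.4%, 37.9% and 14.0% in the same order. The 15 peaks are clustered in 5 genes and are not independent draws, so these shares are given without intervals. No summit lay in the span of a second gene, and no peak overlapped the pseudogenes YTHDF1P1, YTHDF2P1 and YTHDF3P1.

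**Figure D1:**
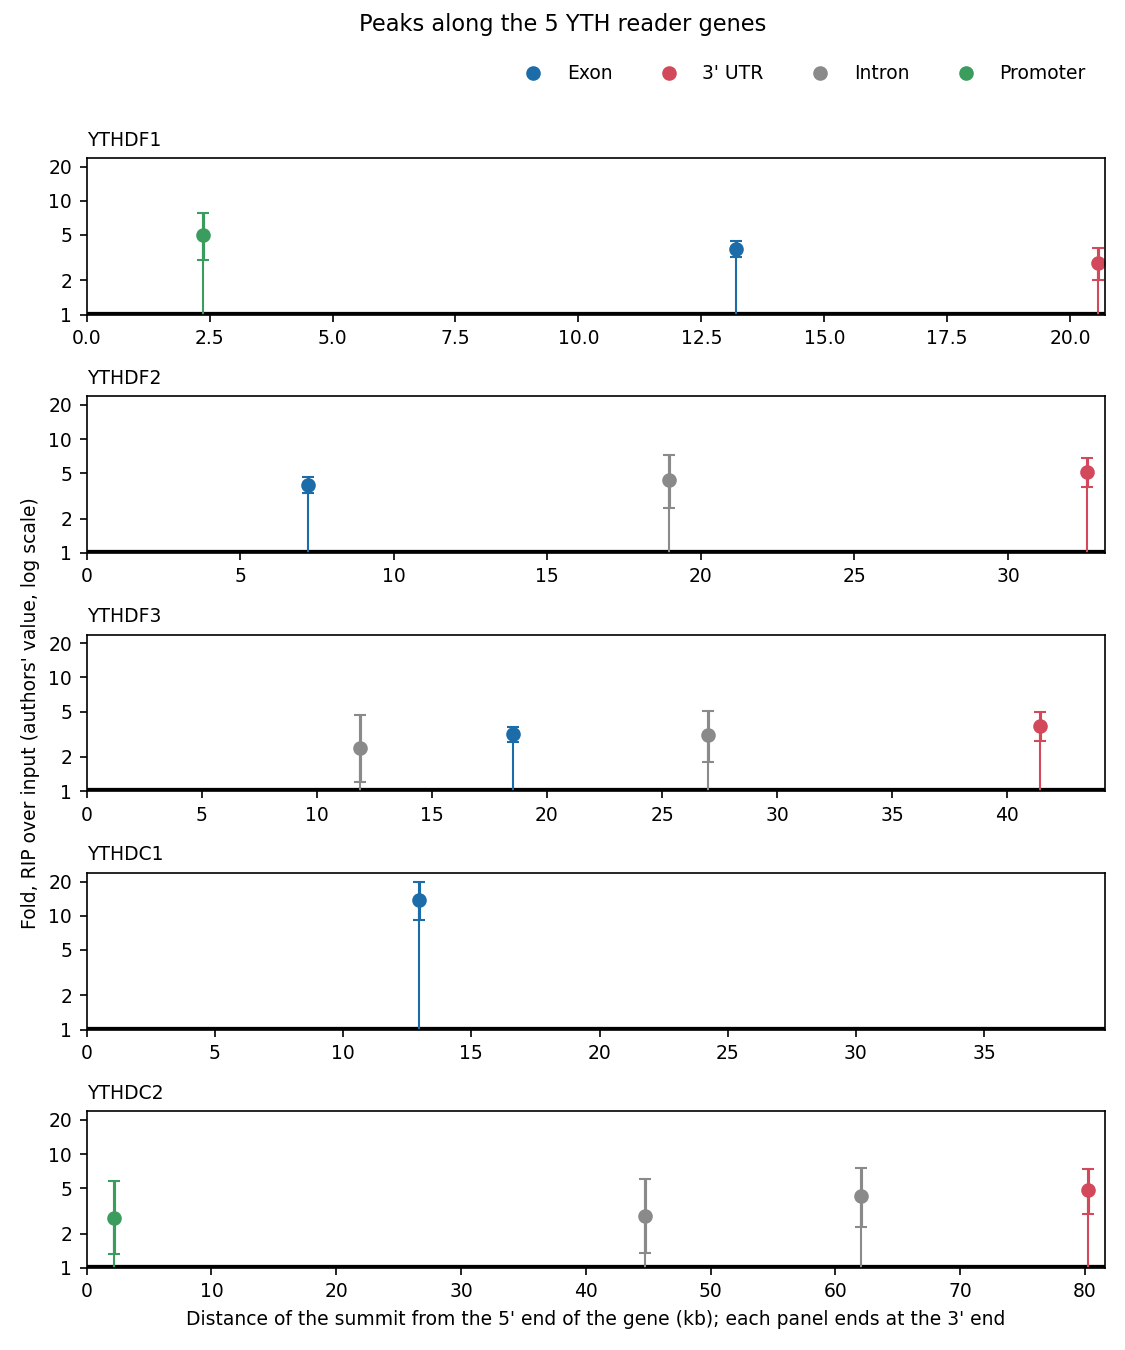
Each panel is 1 gene drawn from its 5' end to its 3' end in kb, and each point is a peak summit at the authors' fold of RIP over input (log axis), coloured by region, with the exact 95% Poisson interval of the RIP fragments. The 3 YTHDF genes each have an exon peak and a peak near the 3' end, YTHDC2 has its highest fold near the 3' end, and YTHDC1 has a lone exon peak at 13.7.

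The 3 YTHDF genes shared 1 feature, a broad and deep peak in the next-to-last exon, the long exon that carries most of their coding sequence. In the sentences that follow, a level is a number of recovered fragments per 296 bases, with RIP scaled to the size of the input library. The RIP level is that at the summit. The input level is the highest of 4 values, scaled to 296 bases. These are the 296 bases at the summit, the surrounding 1 kb, the surrounding 10 kb and the genome-wide average. At exon 4 of 5 of YTHDF1, on chromosome 20 from 63202130 to 63203714, the level was 90.5 in the RIP library and 23.1 in input. At exon 5 of 6 of YTHDF2, on chromosome 1 from 28742595 to 28744471, it was 89.8 in the RIP library and 22 in input. At exon 5 of 6 of YTHDF3, on chromosome 8 from 63186254 to 63187989, it was 104.6 in the RIP library and 32.3 in input. The 3 sites thus rested on 141, 140 and 163 RIP fragments, more than any other peak of the 5 genes, and their input levels were above those of 95.5% to 97.8% of exon peaks.

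Enrichment at these exons was moderate, and no difference among the paralogs was resolved. The authors' fold was 3.80 (interval 3.20 to 4.47) in YTHDF1, 3.95 (3.33 to 4.65) in YTHDF2 and 3.17 (2.71 to 3.70) in YTHDF3. The intervals overlapped for every pair. The fold adds a pseudocount of 1 to both levels. Without it, and with the counting error of both libraries, the ratio of RIP to input was 3.92 (2.95 to 5.23) in YTHDF1, 4.08 (2.59 to 6.72) in YTHDF2 and 3.24 (2.53 to 4.17) in YTHDF3. The ratio in YTHDF2 was 1.26 times that in YTHDF3, with an approximate interval of 0.756 to 2.10, and 1.04 times that in YTHDF1 (0.615 to 1.77). Among the 933 exon peaks with an input level of at least 10, whose median fold was 3.04, the fold was below that of YTHDF2 in 76.2%, below that of YTHDF1 in 71.7% and below that of YTHDF3 in 53.9%. The input level of YTHDF2 came from the summit itself and those of YTHDF1 and YTHDF3 from the surrounding 1 kb, which held 78 and 109 input fragments and, in YTHDF2, at most 74.

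**Figure D2:**
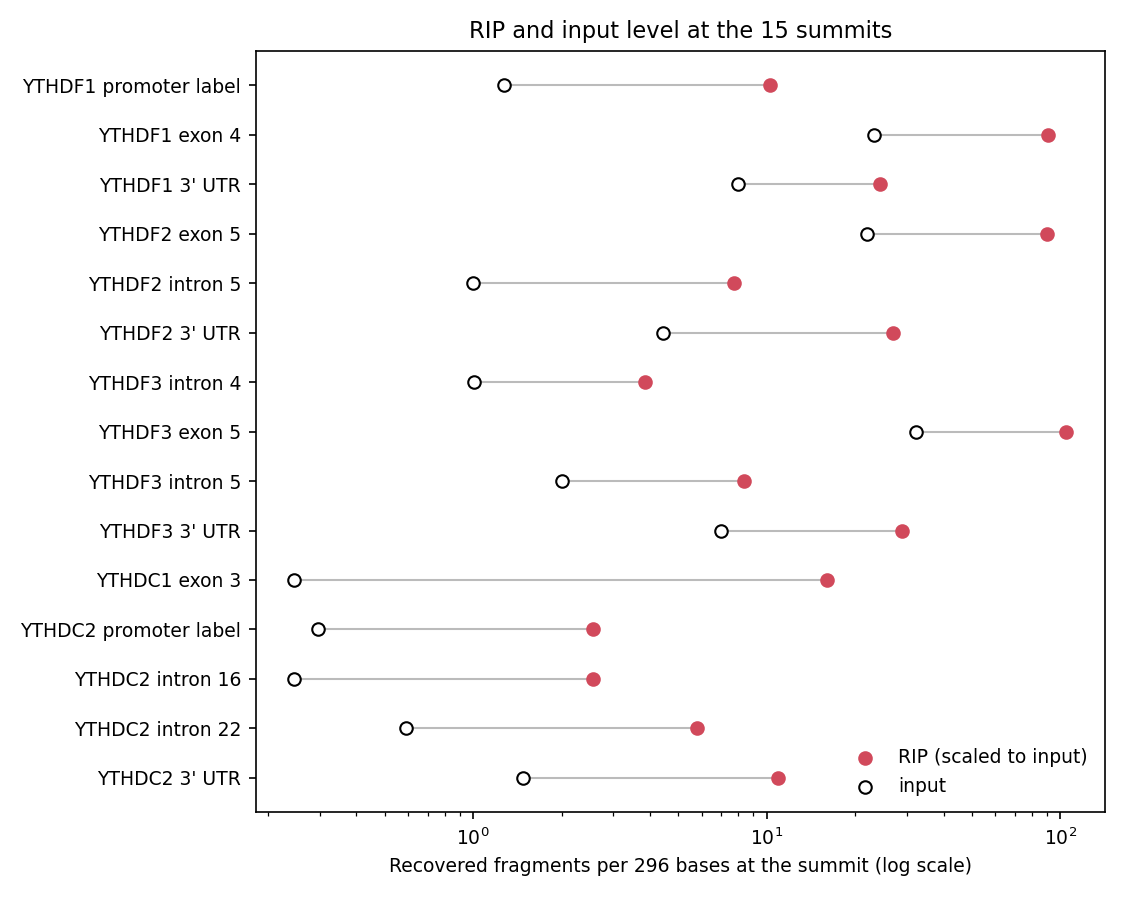
Each line joins the RIP level (filled, scaled to input) and the input level (open) at 1 of the 15 summits, in recovered fragments per 296 bases on a log axis, with the peaks of a gene in order from 5' to 3'. The 3 YTHDF exon peaks lie furthest to the right in both libraries, and exon 3 of YTHDC1 and intron 16 of YTHDC2 have the lowest input level, 0.246.

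The YTHDF exon peaks were also wide, a point chosen after the values were seen. The peak was 1585 bases wide in YTHDF1, 1877 in YTHDF2 and 1736 in YTHDF3, against a median of 368 for exon peaks. Only 126 of 5991 exon peaks (2.10%) were at least as wide as the narrowest of these. The exon peak of YTHDC1 was 868 bases wide, wider than 89.3% of exon peaks. The YTHDF sites were also among the deepest in input, and the part of depth in their width was not tested.

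**Figure D3:**
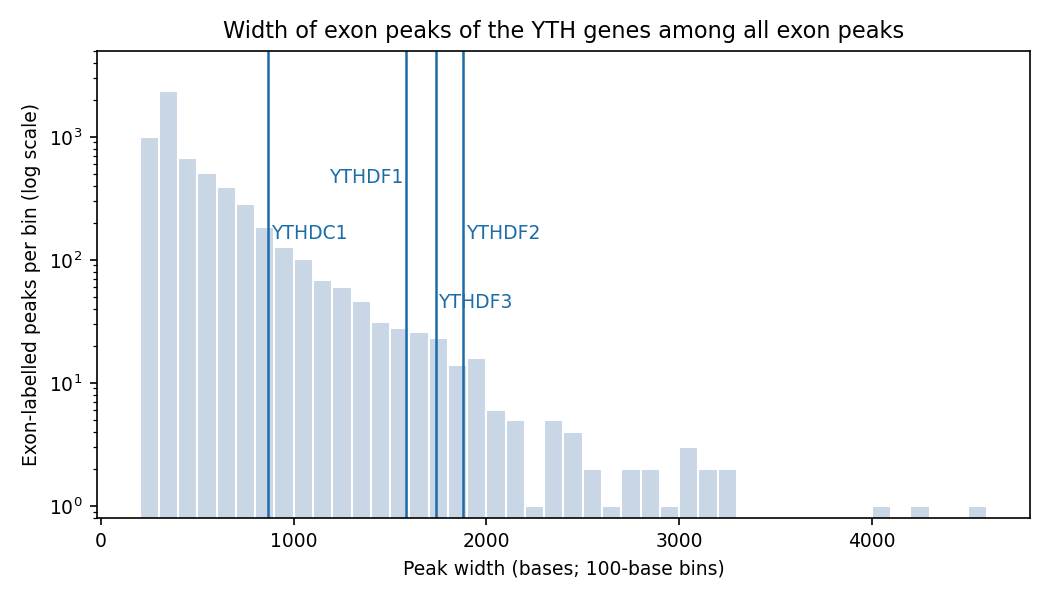
Bars count all exon-labelled peaks by width in 100-base bins, with a log axis for the counts, and vertical lines mark the 4 exon peaks of the YTH genes. The lines of YTHDF1, YTHDF3 and YTHDF2 stand at 1585, 1736 and 1877 bases, in the sparse right part of the distribution.

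A second, narrower peak lay in the 3' UTR of each YTHDF gene. In YTHDF2 the level was 26.9 in the RIP library and 4.44 in input, on chromosome 1 from 28768967 to 28769325. In YTHDF3 it was 28.9 in the RIP library and 7 in input, on chromosome 8 from 63209747 to 63210169. In YTHDF1 it was 24.4 in the RIP library and 8 in input, on chromosome 20 from 63195320 to 63195619. The RIP levels were close to each other, while the input level was lowest in YTHDF2. That of YTHDF2 came from 15 fragments in 1 kb, and those of YTHDF3 and YTHDF1 from the summit. The authors' fold was 5.14 (3.75 to 6.88) in YTHDF2, 3.73 (2.76 to 4.95) in YTHDF3 and 2.82 (2.03 to 3.83) in YTHDF1. Without the pseudocount, the ratio in YTHDF2 was 1.99 times that in YTHDF1, with an interval of 0.760 to 5.22 that includes equality.

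The distance of these peaks from the annotated 3' end differed between paralogs. The distance from the stop codon and the length of the 3' UTR were not measured. The YTHDF1 summit lay 143 bases from the annotated 3' end of the gene, the YTHDF2 summit 563 bases from it and the YTHDF3 summit 2821 bases from it. The YTHDF1 peak ran past the annotated end of the gene. Its summit was close to the limit of the rule, whereas the nearest summit outside any of the 5 spans was 20.98 kb away. Between the 2 regions of a gene, the RIP level of the coding exon was 3.71 times that of the 3' UTR in YTHDF1, 3.33 times in YTHDF2 and 3.62 times in YTHDF3. The input level of the exon was 2.89, 4.95 and 4.61 times that of the 3' UTR in the same order. These input ratios set unlike windows against each other. In YTHDF1 and YTHDF3 the exon level came from 1 kb and the 3' UTR level from the summit, and in YTHDF2 the reverse held. The fold was higher in the exon for YTHDF1 and higher in the 3' UTR for YTHDF2 and YTHDF3, with overlapping intervals within each gene.

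The gene names of the deposited table, which follow the nearest transcript start, differed from the gene span at 2 points. The 3' UTR peak of YTHDF1 was named for MIR124-3, a microRNA gene whose end lies 16.99 kb from the summit. A peak of fold 11 named for YTHDF2 lay in the 3' UTR of GMEB1, a transcription factor gene, 21.95 kb from YTHDF2. By name alone, the highest fold of YTHDF2 would be 11 and not 5.14.

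The remaining YTHDF peaks were weak or shallow. YTHDF1 had a promoter-labelled peak of 298 bases, 2359 bases into the gene. The peak had a level of 10.3 in the RIP library and 1.27 in input (43 fragments in 10 kb). Its fold of 4.96 (3.02 to 7.77) was the highest of that gene and rested on 16 RIP fragments. The last intron of YTHDF2 had a level of 7.70 in the RIP library and 1 in input, and a fold of 4.35 (2.49 to 7.22). That input level is a lone fragment, and the ratio without the pseudocount, 7.70, had an interval of 1.14 to 329.1. In YTHDF3, intron 4 had a level of 3.85 in the RIP library and 1.01 in input (34 fragments in 10 kb). Intron 5 had 8.34 in the RIP library and 2 in input. Neither reached a q-value under 0.05, with −log10 q-values of 0 and 1.04, and their folds were 2.42 and 3.11.

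YTHDC1 differed from the other readers by a lone exon peak of high fold. The peak lay in exon 3 of 17, on chromosome 4 from 68336791 to 68337658, and its level was 16.0 in the RIP library and 0.246 in input. The fold, 13.7 (9.13 to 19.8), was above that of 99.6% of all peaks and 99.5% of exon peaks, and with input held fixed its interval did not overlap that of any other peak of the 5 genes. The peak rested on 25 RIP fragments. Its −log10 p-value of 25.0 was near the 26.0, 26.8 and 23.5 of the YTHDF1, YTHDF2 and YTHDF3 exons.

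The input side of that fold held no fragments near the summit. The level of 0.246 is the genome-wide average that the peak caller uses when the local windows lie below it, so there were 0 input fragments at the summit, 0 in the surrounding 1 kb and at most 8 in the surrounding 10 kb. Up to 3 fragments in 1 kb are compatible with a count of 0. Against that many, the RIP level was 18.1 times the input level, and at the lower end of the RIP interval it was at least 11.7-fold higher. Of the 10483 peaks at this input level, whose median was 3 RIP fragments, 12 had 25 or more, the YTHDC1 peak included. Among the 856 exon peaks of that kind, 4 did. How much YTHDC1 RNA the input held elsewhere in the gene cannot be read from the peak list.

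YTHDC2 held 4 shallow peaks over its 81.6 kb span, with 4 to 17 RIP fragments each. The strongest was in the 3' UTR, on chromosome 5 from 113593490 to 113594123, with its summit 1352 bases from the 3' end. Its level was 10.9 in the RIP library and 1.48 in input (5 fragments in 1 kb), with a fold of 4.80 (2.97 to 7.44). Intron 22 of 28 had 5.77 in the RIP library and 0.592 in input (2 fragments in 1 kb), and a fold of 4.25 (2.29 to 7.51). These were the peaks of YTHDC2 with a q-value under 0.05, and none of its peaks passed 1e-5. Intron 16 of 28 and the promoter-labelled site, 2171 bases into the gene, had 4 RIP fragments each and folds of 2.86 (1.36 to 6.08) and 2.75 (1.31 to 5.84). The input level of intron 16 was the genome-wide average, with 0 input fragments in the surrounding 1 kb, and that of the promoter-labelled site was 1 fragment in 1 kb. YTHDC2 had no exon-labelled peak, in contrast to the other 4 genes.

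**Figure D4:**
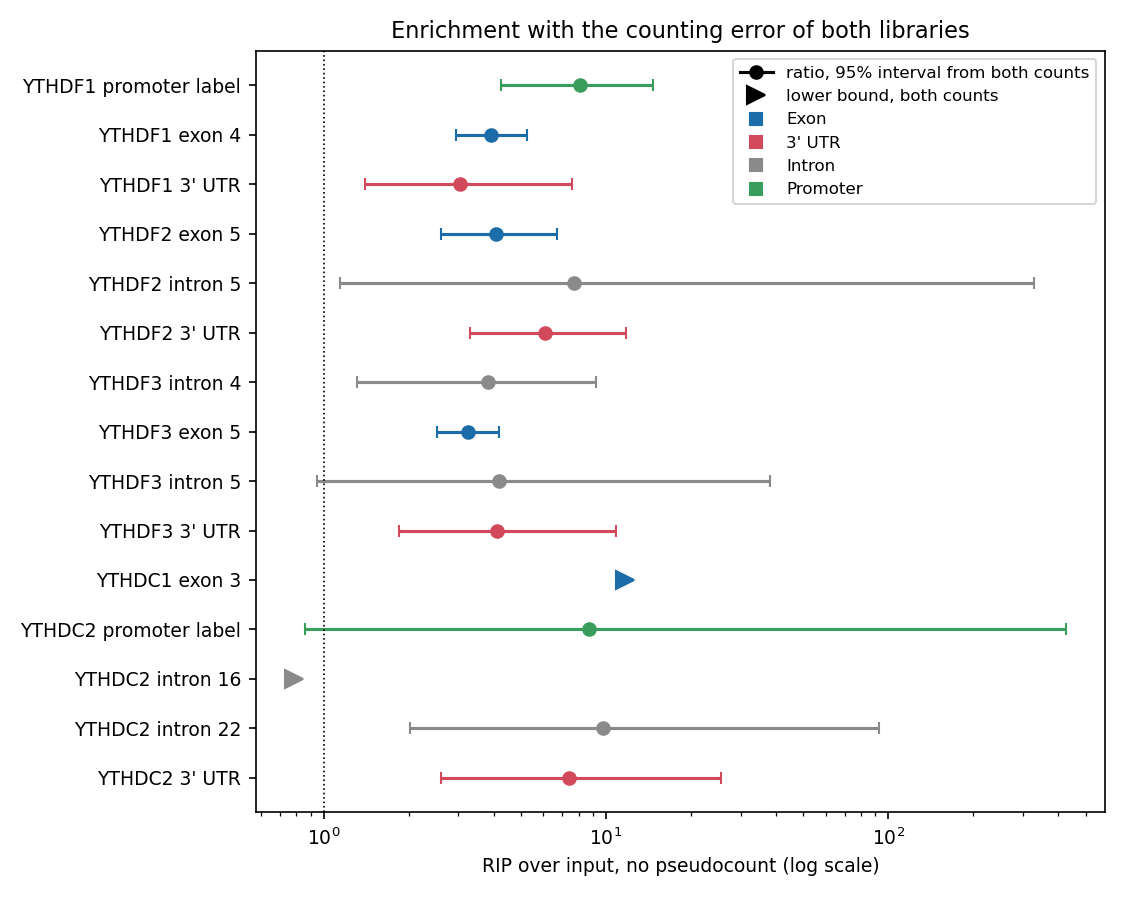
Points give the ratio of RIP to input at each summit without a pseudocount, on a log axis, with the exact 95% interval from the counts of both libraries, and triangles give lower bounds, from 3 input fragments and the lower end of the RIP interval, where no input fragment lay within 1 kb. The intervals of the YTHDF exon peaks are the narrowest, those of YTHDF3 intron 5 and the YTHDC2 promoter label include 1, the YTHDC2 intron 16 bound is 0.787, and the YTHDC1 bound of 11.7 lies right of all 3 YTHDF exon intervals.

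By their highest fold the genes ranked YTHDC1 (13.7), YTHDF2 (5.14), YTHDF1 (4.96), YTHDC2 (4.80) and YTHDF3 (3.73). With input held fixed, the intervals of the last 4 overlapped one another and that of YTHDC1 lay above them. With the counting error of both libraries the YTHDC1 bound of 11.7 fell within the intervals of other peaks, so its first place was not settled. Among them were the YTHDC2 3' UTR at 7.37 (2.61 to 25.5) and the YTHDF1 promoter label at 8.06 (4.24 to 14.6). The bound also assumes an even spread of input fragments over 1 kb. The order of the last 4 was YTHDC2, YTHDF1, YTHDF2 and YTHDF3 when the pseudocount was left out. There the place of YTHDC2 rested on 4 RIP fragments of intron 16, a peak without a q-value under 0.05, set against the genome-wide input level. Those of YTHDF2 and YTHDF3 rested on intron peaks with 1 and 2 input fragments, the latter without a q-value under 0.05. Across regions of the same kind, 9 pairs of genes could be compared with the counting error of both libraries, 3 for YTHDF exons and 6 for 3' UTRs. The YTHDC1 exon was left out of these pairs, as its input level was the genome-wide average. The interval of the ratio included 1 in all 9 pairs. These intervals were wide in the 3' UTR, where YTHDC2 over YTHDF1 was 2.42 (0.689 to 8.48) and YTHDC2 over YTHDF3 1.79 (0.499 to 6.40). In exons they were narrower but reached 2.10, for YTHDF2 over YTHDF3. Similar enrichment is thus not shown in either region.

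Other genes of the m6A pathway also carried peaks, beside the share of 49.3% for protein-coding genes. All 9 writer genes had a summit in their span, led by ZC3H13, an anchor of the methyltransferase complex, with 14 peaks and a highest fold of 16.6 (13.7 to 19.8). Both summits in WTAP, a regulatory subunit, also lay in the span of SOD2, and the table carries no strand to tell them apart. Both demethylase genes held a peak, although 3 of the 12 summits in FTO also lay in the span of LOC124903691. A peak was also held by 4 of 6 other reader genes, the exceptions being HNRNPA2B1 and FMR1, and 3 of the 6 held one with a q-value under 0.05. Of 11 genes for partners of the YTH readers, 6 (54.5%) held a peak, near the 49.3% of all protein-coding genes. Of the same 11 genes, 5 held a peak with a q-value under 0.05, beside a share of 39% for all protein-coding genes. POP1, a subunit of the RNase P and MRP endonucleases, had the highest fold of these, 5.63 (4.57 to 6.86). CNOT1, the scaffold of CCR4-NOT, the splicing factor genes SRSF3 and SRSF7, the export receptor gene NXF1 and the meiotic gene MEIOC held none. Genes were not matched on the amount of their RNA, and the part of that amount in these counts was not tested.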

How the data were processed

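The submitters' processing notes name HISAT2, MACS2 and hg38, with no versions; caller settings and duplicate handling are not stated in the labels. The authors deposited 1 table of peaks, each with a fold (RIP over input, a linear ratio) and a score. Headers of 2 deposited columns were damaged, and these were read as −log10 p-value and −log10 q-value because 99.99% of deposited scores equal 10 times the first rounded down. The list held 39801 peaks, with 23 of its running numbers absent from those used here. Its lowest −log10 p-value was 1.30, without correction.

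Fold and p-value were turned back into RIP fragments and input level, using a Poisson tail, a pseudocount of 1 and a RIP scaling of 0.642. The RIP library was thus 1.56 times as large as input; neither total is known. Both values were met within 0.001 (−log10 p) for 100% of peaks, 98.2% of them by a single whole number. Otherwise, as in 1 peak of YTHDF1, the solution with whole input fragments was taken. The input level of 100% of peaks was then a whole count in 296 bases, 1 kb or 10 kb, scaled to 296 bases, or the genome-wide average (26.3%). The caller takes the highest of these. A level that is a whole count in 1 kb is also a whole count in 10 kb, and such levels were read as 1 kb. Read as 10 kb, they would rest on more input fragments, and the intervals of their ratios would be narrower. On 1999 simulated peaks the recovery returned the fragments of 100%. Those peaks were made with the same formula, scaling and windows. The result therefore checks the arithmetic only, and the assumed caller model, the scaling and the choice between windows were not tested by it.

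The interval of a fold is the exact 95% Poisson interval of the RIP fragments with input held fixed; that of a ratio is exact, conditional on the sum of both counts; that between genes is a normal approximation on the log scale. Reads carry no molecular identifiers, so fragments may not be independent. Gene spans were those of RefSeq (GRCh38.p14). Named were the 5 genes with all their peaks, the gene of highest fold and the genes without a peak in each list, and genes for which the deposited name and the span of a reader disagreed; WTAP, SOD2, FTO and LOC124903691 were named after their values were seen. Other genes of the lists whose peaks carry a neighbour's name were counted by span. The members and lists were chosen with earlier results of these data known. Python 3.11.15 and SciPy 1.17.1 were used.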

Additional observations from a re-analysis of the deposited data

How the results depend on the processing

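No paired analysis was possible because each group held 1 library. At a q-value under 1e-5, 6 of the 15 peaks were left, so the count of peaks with a q-value under 0.05 also came to 6. Exons then held 66.7% of them (26.7% of all 15), introns 0% and promoter labels 0%, and YTHDC2 had no peak, which left 6 of the 10 pairs of genes in the order of the full list. Without intron peaks the intron share was 0% by construction. Without the pseudocount the median over the genes of the highest value was 8.06, against a median highest fold of 4.96. YTHDC1 came to 65.2 and YTHDC2 to 10.4 on that scale, values set against the genome-wide input level and not a local one. By −log10 p-value, 7 of the 10 pairs kept their order, with YTHDF2 first and YTHDC2 last. Requiring more than 3 RIP fragments, or counting any overlap of peak and span, changed none of the counts, shares or orders. Low input limits the YTHDC1 and YTHDC2 values, with at most 5 input fragments in the 1 kb surrounding a summit. It likewise limits the promoter-labelled peak of YTHDF1 (at most 4), the intron peak of YTHDF2 (3) and intron 4 of YTHDF3 (3).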

Other observations

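Because CRTC2 acts through CREB, the promoter windows of the readers were searched for the palindromic cAMP response element TGACGTCA, which reads the same on both strands. The motif was chosen after the sequences had been seen. RefSeq windows of GRCh38.p14, from 250 bases before to 50 after a transcript start, were matched by symbol for 4 of the genes (5 windows), and not for YTHDF3. YTHDC1 and YTHDC2 held 1 match each, and YTHDF1 and YTHDF2 held none, beside 649 of all 35116 windows (1.85%). The match began 97 bases before the start in YTHDC1 (chr4:68350171-68350196, minus strand) and 18 bases before it in YTHDC2 (chr5:113513667-113513692, plus strand). The lines below give 26 bases around each match, 5′ to 3′, with the motif in capitals, to show how far the surroundings differ.
YTHDC1: gcgacgcgcTGACGTCAcgtcacgtt
YTHDC2: cggccctggTGACGTCAttacgcccg
A match is a description of the letters in these windows; m6A capture measures neither promoter binding nor transcription.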
